A study of Mus musculus with 15 samples.

Results

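The cell cycle and DNA replication genes are a set of 35 genes, taken by name from the 35275 genes of the deposited liver count table. They encode cyclins and the kinase Cdk1, the transcription factors E2f1 and Foxm1, proteins that license and unwind replication origins, the sliding clamp, enzymes that supply deoxynucleotides, and mitotic kinases, checkpoint proteins and motors. All 35 names were found. Of these genes, 22 were above 1 CPM on average over the 15 libraries (library-scaled counts, on library sizes adjusted by the TMM method), and 13 were at or below it. A filter on low counts passed 28 of the 35 to the tests, beside 13837 genes in all. The liver libraries came from C57BL/6 mice that were 3 months old when the regimens began and 6 months old at their end. Of the 3 groups, the first was fed ad libitum (AL), the second fasted intermittently for 16 h (IF16) and the third fasted on alternate days for 24 h (EOD), each for 3 months and with 5 libraries. The labels give no genetic change in any group, do not say whether each library is a separate mouse, and do not give the time between the last meal and the collection of the liver. The p-values therefore rest on differences among libraries of a group, and these can be partly technical.

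A cell enters division in steps. D-type and E-type cyclins activate kinases in G1 that release E2F factors from the retinoblastoma proteins, and E2F factors then raise transcription of the genes for DNA synthesis. Cdc6 and Cdt1 load the MCM helicase onto origins, ribonucleotide reductase and thymidylate synthase make the deoxynucleotides, and A- and B-type cyclins with Cdk1 and the Aurora and Polo kinases carry the cell through mitosis. Hepatocytes of the adult liver are mostly out of the cycle, although they can enter it again after loss of tissue, and many of them are polyploid.

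The library totals were 28129883 to 38147534, and 3 counts corresponded to 0.0780 to 0.107 CPM. The 35 genes together took 0.0198% to 0.0310% of the counts. Hepatocyte markers were abundant in every library, with a summed level of 83589 to 131295 CPM over 7 markers, led by Alb. AL replicates 4 and 5 stood apart from the other AL libraries: the chi-square statistic over genes, divided by its degrees of freedom, was 121 to 201 for pairs that joined 1 of them to AL replicates 1 to 3, against 33.2 to 66.8 between AL replicates 1 to 3 and 29.7 between replicates 4 and 5. Neutrophil markers summed to 31.2 and 28.8 CPM in AL replicates 4 and 5 and to 1.20 to 4.11 CPM in the other 13 libraries. Results are therefore given without both libraries where that changed a call. For EOD replicate 5 the same chi-square measure was 81.0 to 123 with the other EOD libraries, against 32.5 to 72.2 among those. Pairs within IF16 were at 23.1 to 99.9. Mitochondrial transcripts took 10.01% to 15.1% of counts in AL, 8.98% to 11.5% in IF16 and 5.34% to 10.1% in EOD, and their part in the results was not tested. The 10.1% was EOD replicate 5, and the other EOD libraries were at 5.34% to 6.83%.

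Most of the set was weakly expressed, and 3 genes held most of its RNA. By level per gene length, as the mean deposited FPKM over the 15 libraries, the order began with Pcna at 19.5, Mcm10 at 19.0 and Tk1 at 13.6 FPKM, which stood at percentiles 83.8, 83.5 and 79.3 of the tested genes. Ccnd3 followed at 5.91 FPKM, Mcm7 at 2.91, Rrm2 at 2.15, Tyms at 1.78 and Rrm1 at 1.48 FPKM. The proliferation antigen Mki67 was at 0.0798 FPKM, percentile 1.57 of the tested genes. Pcna and Mcm10 overlapped in FPKM from library to library, so their order is not separated by the spread. The 7 genes that did not pass the filter had few reads: no library held more than 11 counts of the B-type cyclin Ccnb1, 15 of Foxm1, 15 of the licensing factor Cdc6, 15 of the Aurora kinase Aurkb, 7 of the checkpoint kinase Bub1, 18 of the Polo kinase Plk1 or 17 of the anaphase activator Cdc20. They were left out of the fit behind the calls, and at this depth a difference between the groups could be missed. With no filter on low counts all 35 genes were tested, and none of these 7 passed in IF16 or EOD against AL.

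**Figure D1:**
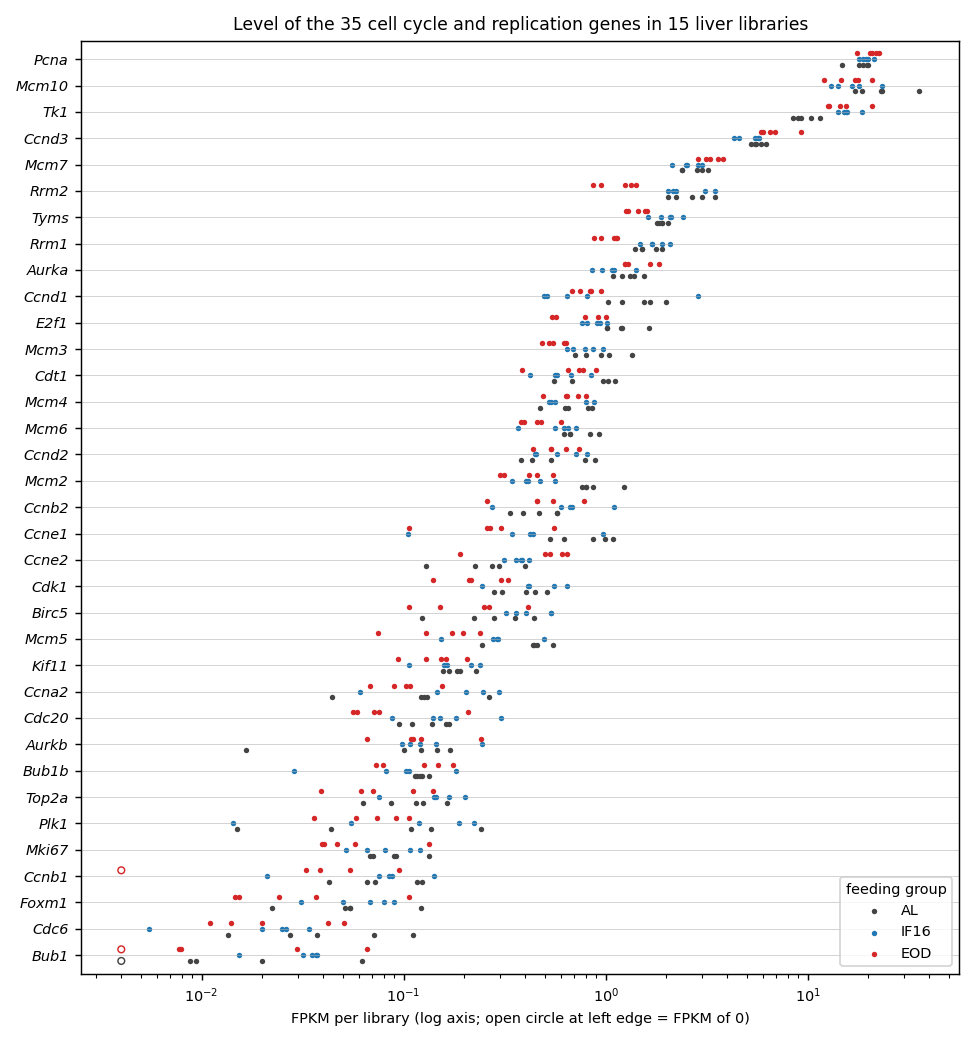
Level of each of the 35 genes in each of the 15 liver libraries, as FPKM on a log axis, with genes ordered by their mean and colours for the 3 feeding groups. Pcna, Mcm10 and Tk1 stand above all the others, and Bub1, Cdc6, Foxm1 and Ccnb1 lie at the bottom, with open circles at the left edge for libraries at 0.

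Every-other-day fasting went with lower RNA of a part of the DNA synthesis genes. In EOD against AL, 11 of the 28 tested genes passed the threshold of an adjusted p under 0.05 (39.3%), beside 35.2% of all tested genes. Of these, 9 were lower, namely Ccne1, E2f1, Mcm2, Mcm3, Mcm5, Mcm6, Rrm1, Rrm2 and Tyms, which is 32.1% of the 28 genes beside 17.6% of all tested genes called lower. The higher ones were Tk1 and Ccne2, 7.14% beside 17.6%. Without AL replicates 4 and 5, 6 of 32 tested members were lower and 2 higher. Over all genes tested in that fit, 1979 of 14205 were lower and 2332 higher. The median log2 fold change of the 28 genes was -0.34, and it was -0.01 over all tested genes. In IF16 against AL, 2 of the 28 passed (7.14%, beside 3.5% of all tested genes), Tk1 higher and Mcm2 lower, with a median of -0.07; over all tested genes 1.4% were called higher and 2.1% lower. In EOD against IF16, 5 passed (17.9%, beside 16.1% of all tested genes), with Ccnd3 higher, Cdk1, Rrm1, Rrm2 and Tyms lower, and a median of -0.29; over all tested genes 7.96% were called higher and 8.15% lower. Groups that did not overlap in CPM were found for 2 of the 28 genes in IF16 against AL (beside 5.78% of all tested genes, 2.59% higher and 3.19% lower), for 10 in EOD against AL (beside 18.6%, 8.46% higher and 10.2% lower) and for 4 in EOD against IF16 (beside 10.9%, 4.63% higher and 6.26% lower). Calls of the set held in every alternative for 7 of 11 genes in EOD against AL, 2 of 5 in EOD against IF16 and 2 of 2 in IF16 against AL. The comparisons of EOD and IF16 with AL share the 5 AL libraries. In bulk liver, fewer cells of a type and less RNA per cell cannot be told apart.

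**Figure D2:**
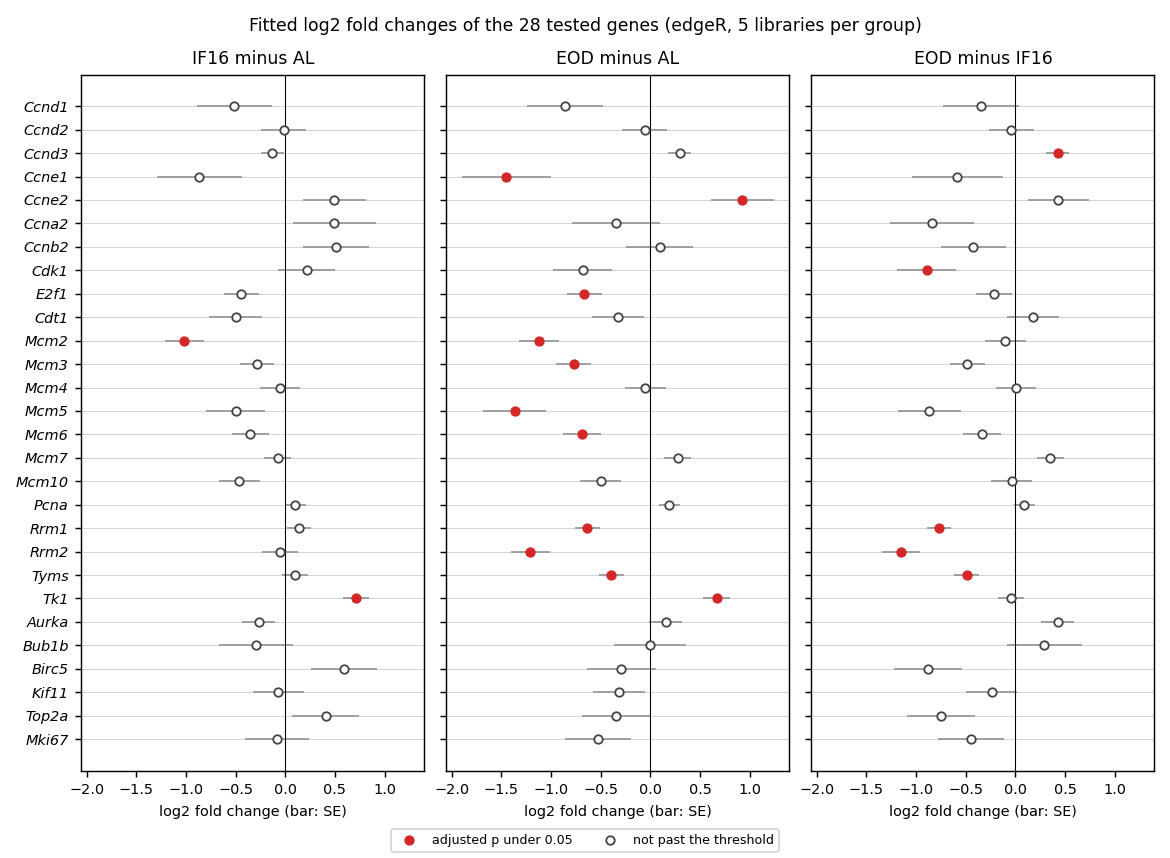
Fitted log2 fold changes of the 28 tested genes, ordered by role from G1 cyclins at the top to mitotic genes at the bottom, in the 3 comparisons; bars are standard errors and red points passed the adjusted threshold. In EOD minus AL, 9 red points lie left of 0 and Ccne2 and Tk1 lie right of it.

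Among the G1 cyclins, the D-type group showed 1 call and the E-type pair passed in opposite directions in EOD against AL. The D-type cyclins bind Cdk4 and Cdk6 and start the release of E2F factors. Ccnd1 stood at 7.07, 3.73, 6.30, 5.88 and 4.66 CPM in AL replicates 1 to 5, at 10.1, 3.05, 2.01, 1.89 and 2.40 CPM in IF16, and at 3.48, 2.84, 3.34, 2.65 and 2.92 CPM in EOD. All 5 EOD libraries were below all AL libraries, and IF16 replicate 1 was above every other library while the other 4 IF16 libraries were below all of AL. In EOD against AL its log2 fold change was -0.86 (SE 0.38, adjusted p = 0.0935), which did not pass in the edgeR fit of all libraries. It passed without IF16 replicate 1 (adjusted p = 0.00228), in a fit of EOD and AL alone (0.00389) and by the DESeq2 Wald test (0.0486). In IF16 against AL it was -0.51 (adjusted p = 0.513), and without IF16 replicate 1 it was -1.24 (adjusted p = 0.00237). Oraov1, on the opposite strand, overlaps Ccnd1 by 818 bases and had a mean of 11.0 CPM. Oraov1 was at -0.04 in EOD against AL (adjusted p = 0.834) and at -0.34 in IF16 against AL (adjusted p = 0.118). The effect of that overlap on the count of Ccnd1 was not tested.

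Ccnd3, the most abundant cyclin of the set, stood at 22.9, 20.5, 21.6, 20.4 and 23.5 CPM in AL, at 20.7, 21.5, 17.5, 17.9 and 21.9 CPM in IF16, and at 35.3, 23.0, 26.5, 24.0 and 24.7 CPM in EOD. EOD lay above IF16 in every library and overlapped AL. It was higher in EOD than in IF16 by 0.43 on the log2 scale (SE 0.12, adjusted p = 0.0186), and the call was lost without EOD replicate 1 (adjusted p = 0.0531). Against AL the difference was 0.29 (adjusted p = 0.0548). Leaving out IF16 replicate 1 or EOD replicate 2, 4 or 5, the DESeq2 Wald test and a filter of 1 CPM each brought that comparison past the threshold. Bysl, on the opposite strand, overlaps Ccnd3 by 361 bases and had a mean of 13.4 CPM. Bysl was at 0.03 in EOD against IF16 (adjusted p = 0.911) and at -0.25 in EOD against AL (adjusted p = 0.126). The effect of that overlap on the count of Ccnd3 was not tested. Ccnd2 had group means of 3.42, 3.39 and 3.29 CPM in AL, IF16 and EOD, and its interval for EOD minus AL ran from -0.53 to 0.42 on the log2 scale.

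The E-type cyclins activate Cdk2 at the entry to S phase. Ccne1 stood at 1.66, 1.21, 1.08, 2.00 and 2.23 CPM in AL, at 1.83, 0.885, 0.723, 0.213 and 0.837 CPM in IF16, and at 0.208, 0.523, 1.17, 0.630 and 0.502 CPM in EOD. EOD replicate 3 overlapped AL, and the other EOD libraries were below all of AL. Its log2 fold change in EOD against AL was -1.45 (SE 0.45, adjusted p = 0.0181), and it was -1.12 without AL replicates 4 and 5, no longer past the threshold (adjusted p = 0.108). Ccne1 was at -0.87 in IF16 against AL (adjusted p = 0.289) and at -0.58 in EOD against IF16 (adjusted p = 0.410). Ccne2 stood at 0.372, 0.863, 1.21, 0.691 and 0.844 CPM in AL, at 1.02, 1.16, 0.986, 1.17 and 1.24 CPM in IF16, and at 1.48, 1.96, 1.92, 1.66 and 0.533 CPM in EOD. EOD replicate 5 was within the AL range and the other 4 EOD libraries were above it. Ccne2 was at 0.49 in IF16 against AL (adjusted p = 0.444) and at 0.43 in EOD against IF16 (adjusted p = 0.360). Against AL, EOD was at 0.93 (SE 0.32, adjusted p = 0.0302). This call was lost without AL replicate 1 or 4 or EOD replicate 2, 3 or 4, without AL replicates 4 and 5 together, and with EOD and AL fitted alone (adjusted p up to 0.079). Ints8, a gene on the opposite strand that overlaps Ccne2 by 5622 bases, was also higher in EOD than in AL, at 0.48 (SE 0.13, adjusted p = 0.00955). No source used here says whether the counting kept the strands apart, and their reads cannot be told apart.

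E2f1, the activating factor of the S-phase genes, stood at 4.29, 2.73, 3.33, 2.83 and 3.41 CPM in AL, at 2.34, 2.26, 2.20, 2.61 and 2.78 CPM in IF16, and at 2.70, 2.20, 1.56, 1.62 and 2.35 CPM in EOD. EOD did not overlap AL, while IF16 replicate 5 reached the low end of AL. In log2 terms the difference was -0.66 in EOD against AL (SE 0.18, adjusted p = 0.00872) and -0.44 in IF16 against AL (adjusted p = 0.184). Between EOD and IF16 it was -0.22 (adjusted p = 0.438). The EOD call held under all 22 alternatives.

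Of the licensing factors, Cdt1 brings the MCM helicase to origins together with Cdc6. Cdt1 stood at 1.43, 1.17, 2.15, 2.28 and 2.498 CPM in AL, at 1.74, 1.28, 1.54, 1.25 and 0.918 CPM in IF16, and at 1.59, 1.98, 1.49, 1.76 and 0.784 CPM in EOD. The groups overlapped, with a log2 fold change of -0.32 in EOD against AL (adjusted p = 0.355). Gm20388, on the same strand, overlaps Cdt1 by 5114 bases, the whole gene, and had a mean of 0 CPM. The effect of that overlap on the count of Cdt1 was not tested.

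The helicase subunits did not move as 1 block. Mcm2 to Mcm7 form the hexamer that unwinds DNA at the fork, and Mcm10, which is not part of the hexamer, takes part in its activation. In EOD against AL, 4 of the 7 MCM genes fell (57.1%) and none rose, beside 17.6% of all tested genes in either direction. Mcm2 (chromosome 6, 88883475 to 88898780, mm10) stood at 3.95, 2.62, 2.61, 2.73 and 3.00 CPM in AL, at 1.502, 1.40, 1.97, 1.17 and 1.35 CPM in IF16, and at 1.38, 1.07, 1.07, 1.92 and 1.44 CPM in EOD. Every library of either fasting group was below every AL library. Its mean went from 2.98 CPM (SD 0.563, n = 5) in AL to 1.48 CPM (SD 0.300, n = 5) in IF16 and 1.38 CPM (SD 0.350, n = 5) in EOD. The log2 fold change was -1.02 for IF16 (SE 0.20, adjusted p = 0.00982) and -1.12 for EOD (SE 0.20, adjusted p = 0.000505). Between EOD and IF16 it was -0.10, with an interval from -0.54 to 0.33. Both calls of Mcm2 held under all 22 alternatives.

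Against AL, Mcm3, Mcm5 and Mcm6 passed in EOD and not in IF16. In the fit of all libraries none of them passed in EOD against IF16. Mcm3 stood at 4.41, 3.18, 3.59, 2.45 and 2.84 CPM in AL, at 2.79, 3.36, 2.47, 2.75 and 2.19 CPM in IF16, and at 1.64, 1.90, 1.88, 2.22 and 2.04 CPM in EOD. The EOD libraries were all below AL, and IF16 overlapped both groups. It was at -0.77 in EOD against AL (SE 0.18, adjusted p = 0.00289), -0.28 in IF16 against AL (adjusted p = 0.411) and -0.49 in EOD against IF16 (adjusted p = 0.0682). Mcm5 stood at 1.43, 1.52, 0.849, 1.90 and 1.55 CPM in AL, at 1.59, 1.01, 1.05, 0.534 and 0.945 CPM in IF16, and at 0.806, 0.606, 0.462, 0.265 and 0.627 CPM in EOD. EOD again lay below AL in every library. Its log2 fold change was -1.37 in EOD against AL (SE 0.31, adjusted p = 0.0029) and -0.50 in IF16 against AL (adjusted p = 0.396). In EOD against IF16 it was -0.87 (adjusted p = 0.0693). That difference passed by the DESeq2 Wald test (0.0435) and without IF16 replicate 4 (0.0362).

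Mcm6 stood at 2.78, 2.62, 2.94, 4.08 and 3.75 CPM in AL, at 2.91, 2.87, 2.83, 1.63 and 2.43 CPM in IF16, and at 1.69, 2.01, 1.74, 2.15 and 2.44 CPM in EOD. AL replicates 4 and 5 were the highest libraries, and EOD did not overlap AL. Its difference in EOD against AL was -0.69 (SE 0.19, adjusted p = 0.0101). Without AL replicates 4 and 5 it was -0.44 (adjusted p = 0.112). Mcm6 was at -0.35 in IF16 against AL (adjusted p = 0.331) and at -0.33 in EOD against IF16 (adjusted p = 0.248). The other 3 genes of the class did not pass. Mcm4 had means of 2.46, 2.37 and 2.38 CPM in AL, IF16 and EOD, with a difference of -0.05 for EOD against AL (interval -0.47 to 0.38). Mcm7 had means of 8.18, 7.77 and 9.92 CPM and a difference of 0.28 (interval -0.01 to 0.56), which passed only without AL replicates 4 and 5 (0.45, adjusted p = 0.0314). Mcm7 overlaps Cops6 and Ap4m1 on the opposite strand by 64 and 421 bases. Cops6 had a mean of 97.9 CPM, and Ap4m1 one of 3.57 CPM. In EOD against AL, Cops6 was at 0.30 (adjusted p = 0.0805) and Ap4m1 was higher at 0.42 (adjusted p = 0.029). In EOD against IF16, Cops6 was at 0.37 (adjusted p = 0.0614) and Mcm7 at 0.35 (adjusted p = 0.0841). Reads of the shared bases cannot be told apart without strand, so the direction of Mcm7 is uncertain.

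Mcm10 was the most abundant MCM gene, about as high per length as Pcna. It stood at 107, 87.7, 115, 177 and 85.6 CPM in AL, at 76.3, 69.4, 91.3, 64.9 and 113 CPM in IF16, and at 85.3, 84.4, 74.9, 105 and 54.7 CPM in EOD. The 3 groups overlapped, and AL replicate 4 was the highest library. Mcm10 was at -0.50 in EOD against AL (SE 0.21, adjusted p = 0.0708) and passed without AL replicate 5 (0.0459) or EOD replicate 4 (0.0441). In IF16 against AL it was at -0.46 (adjusted p = 0.240), and in EOD against IF16 at -0.04 (adjusted p = 0.923). No other gene of the annotation in the deposited table overlaps Mcm10. Because Mcm10 is so abundant, the summed level of the 7 MCM genes, with means of 136, 101 and 99.0 CPM in AL, IF16 and EOD, mostly follows that gene.

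**Figure D3:**
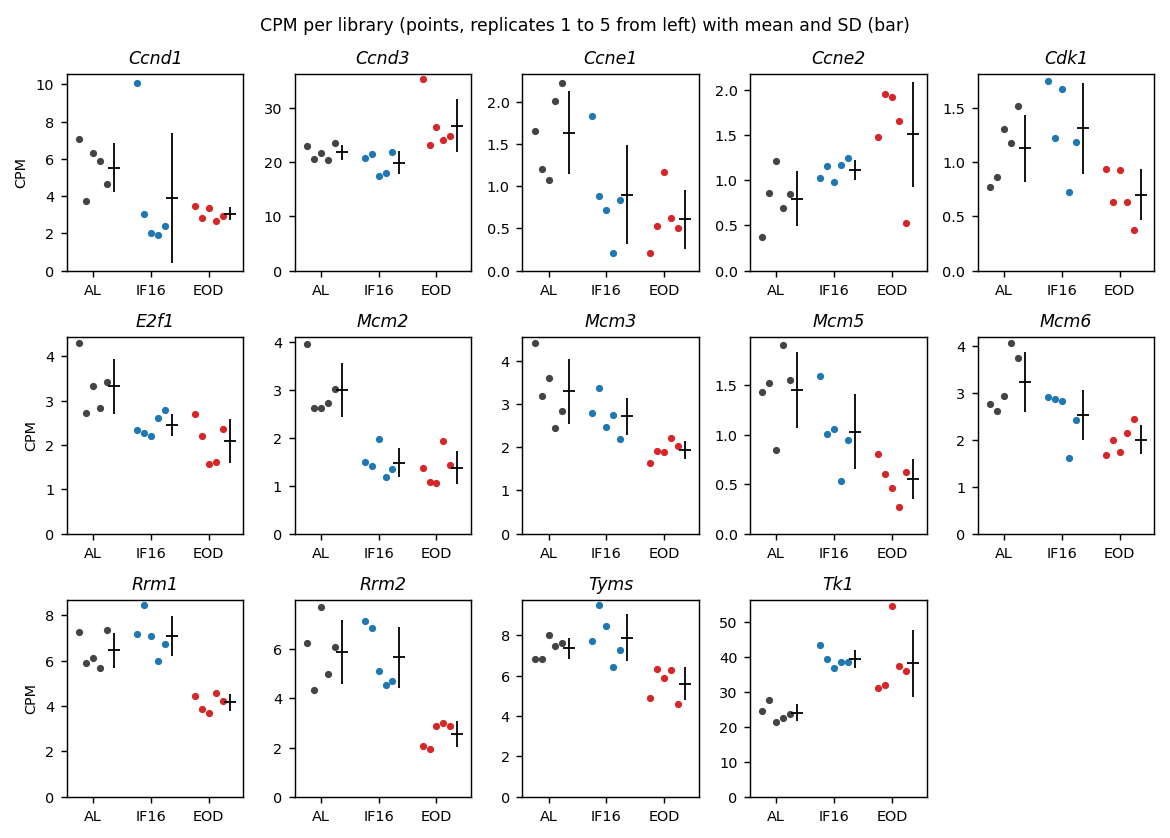
CPM per library of Ccnd1 and of the 13 genes that passed in any comparison; points are replicates 1 to 5 from left to right in AL, IF16 and EOD, and bars give the mean and SD. Mcm2 is below AL in all libraries of both fasting groups, Rrm2 and Rrm1 are low in EOD alone, and Tk1 is above AL in both.

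The promoters of the genes were compared by their letters, since these genes share E2F and cell cycle elements as background. Promoters of RefSeq (GRCm38.p6, from 250 bases before to 50 after the start, 300 bases) were found for 28 of the 35 genes. On both strands they were searched for E2F letters (TTTCCCGC, TTTCGCGC, TTTGCCGC or TTTGGCGC), for the cell cycle homology region or CHR (TTTGAA or TTCGAA) and for the CCAAT box (CCAAT). Of the 28 genes, 7 held E2F letters (25.0%), beside 2.61% of the 27025 symbols in the table, or 2.26% of its 32851 promoters. CHR letters were in 12 of 28 (42.9%, beside 21.7% of symbols and 19.2% of promoters) and CCAAT in 21 of 28 (75.0%, beside 41.1% and 37.4%). Of the 9 genes that were lower in EOD than in AL, 3 held E2F letters (Mcm3, Mcm5 and Mcm6), 1 held CHR letters (Mcm2) and 6 held CCAAT. Of the 13 tested genes with a promoter in the table that did not pass in that comparison, 3 held E2F letters, 8 CHR and 11 CCAAT. The RefSeq start was not always the start of the gene in the deposited table. For E2f1, Cdc6 and Mcm7 every window lay wholly inside the deposited gene, as did the downstream window of Ccnd3. The bases before the deposited start of E2f1, Cdc6 and Mcm7 were therefore not searched. E2f1 is counted as holding none of the motifs, which is known for its window only. A match describes these letters and is not a site of binding.

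The 250 bases before the start are shown for Mcm6 (chr1:128359706-128359955, minus strand), Mcm5 (chr8:75109259-75109508, plus strand), Mcm2 (chr6:88898781-88899030, minus strand) and Rrm2 (chr12:24708004-24708253, plus strand), which fell in EOD, for Tk1 (chr11:117826015-117826264, minus strand), which rose, and for the mitotic cyclin Ccnb2 (chr9:70421555-70421804, minus strand), which did not pass. Capitals mark the matches of any of the 3 motifs, and each sequence runs 5′ to 3′ on the strand of the gene.
Mcm6: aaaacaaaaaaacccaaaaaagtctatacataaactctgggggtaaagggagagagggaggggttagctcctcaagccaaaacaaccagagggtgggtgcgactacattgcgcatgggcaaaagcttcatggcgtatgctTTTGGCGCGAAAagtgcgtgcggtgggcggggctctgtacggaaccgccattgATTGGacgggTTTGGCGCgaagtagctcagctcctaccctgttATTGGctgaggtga
Mcm5: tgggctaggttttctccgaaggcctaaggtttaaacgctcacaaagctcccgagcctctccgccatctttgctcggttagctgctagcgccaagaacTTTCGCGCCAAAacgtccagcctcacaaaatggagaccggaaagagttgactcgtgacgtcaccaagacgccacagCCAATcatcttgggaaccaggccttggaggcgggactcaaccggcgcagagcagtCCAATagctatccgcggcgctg
Mcm2: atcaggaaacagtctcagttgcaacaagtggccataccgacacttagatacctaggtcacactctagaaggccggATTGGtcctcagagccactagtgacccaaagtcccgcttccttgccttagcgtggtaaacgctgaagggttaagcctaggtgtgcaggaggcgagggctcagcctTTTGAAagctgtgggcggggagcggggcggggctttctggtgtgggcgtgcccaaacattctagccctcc
Rrm2: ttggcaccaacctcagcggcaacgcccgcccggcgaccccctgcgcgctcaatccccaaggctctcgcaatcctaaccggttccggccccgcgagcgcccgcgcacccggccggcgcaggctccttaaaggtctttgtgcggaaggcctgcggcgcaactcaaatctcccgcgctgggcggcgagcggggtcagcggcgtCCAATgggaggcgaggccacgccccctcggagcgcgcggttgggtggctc
Tk1: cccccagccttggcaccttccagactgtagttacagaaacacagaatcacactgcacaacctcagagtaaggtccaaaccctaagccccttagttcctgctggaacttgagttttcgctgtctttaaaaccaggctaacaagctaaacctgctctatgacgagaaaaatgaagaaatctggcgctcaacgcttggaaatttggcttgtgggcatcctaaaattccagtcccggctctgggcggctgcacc
Ccnb2: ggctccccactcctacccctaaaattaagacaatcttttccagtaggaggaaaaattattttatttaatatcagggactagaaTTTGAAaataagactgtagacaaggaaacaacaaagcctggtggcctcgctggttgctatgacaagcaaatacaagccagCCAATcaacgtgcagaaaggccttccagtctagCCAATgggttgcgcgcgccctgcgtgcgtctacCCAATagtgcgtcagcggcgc
In Mcm6 and Mcm5 a forward and a reverse E2F match overlap in 1 run of capitals, TTTGGCGCGAAA and TTTCGCGCCAAA, and Mcm6 has a further match nearer to the start. Mcm2 holds 1 CHR and 1 inverted CCAAT match, Rrm2 a single CCAAT match and Tk1 none of the 3 motifs in the whole window. Ccnb2 holds 3 CCAAT matches upstream, at 87, 54 and 21 bases before the start. It also holds a CHR match 167 bases before the start, and another from base 5 after it, outside the bases shown.

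The genes of nucleotide supply split. Ribonucleotide reductase, with the large subunit Rrm1 and the small subunit Rrm2, and thymidylate synthase Tyms make deoxynucleotides anew, and thymidine kinase Tk1 recovers thymidine. In EOD against AL, the 3 genes of synthesis fell and Tk1 rose. Of the 4 genes this is 75% lower and 25% higher, beside 17.6% of all tested genes in either direction. Rrm2 (chromosome 12, 24708241 to 24714146, mm10) stood at 6.27, 4.35, 7.70, 4.98 and 6.08 CPM in AL, at 7.15, 6.87, 5.10, 4.54 and 4.70 CPM in IF16, and at 2.05, 1.93, 2.88, 3.02 and 2.88 CPM in EOD. Every EOD library was below every library of the other groups, which overlapped each other. The mean was 5.88 CPM (SD 1.29, n = 5) in AL, 5.67 CPM (SD 1.24) in IF16 and 2.55 CPM (SD 0.517) in EOD. The log2 fold change was -1.21 in EOD against AL (SE 0.19, adjusted p = 0.000177) and -1.15 in EOD against IF16 (SE 0.19, adjusted p = 0.000807). In IF16 against AL it was -0.05, with an interval from -0.44 to 0.34.

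Rrm1 (chromosome 7, 102441695 to 102469771, mm10) stood at 7.24, 5.91, 6.10, 5.67 and 7.33 CPM in AL, at 7.18, 8.43, 7.10, 6.00 and 6.75 CPM in IF16, and at 4.45, 3.86, 3.70, 4.57 and 4.2001 CPM in EOD. EOD was below both other groups in every library. Rrm1 fell by 0.63 on the log2 scale in EOD against AL (SE 0.13, adjusted p = 0.000994), and the difference was -0.77 in EOD against IF16 (SE 0.12, adjusted p = 0.000654). The calls of Rrm1 and Rrm2 held under all 22 alternatives in both comparisons. Tyms stood at 6.84, 6.80, 7.997, 7.47 and 7.63 CPM in AL, at 7.72, 9.495, 8.45, 6.43 and 7.26 CPM in IF16, and at 4.91, 6.34, 5.90, 6.26 and 4.58 CPM in EOD. EOD lay below both groups, with a narrow gap. Tyms was at -0.39 in EOD against AL (SE 0.13, adjusted p = 0.0254) and -0.49 in EOD against IF16 (SE 0.13, adjusted p = 0.0158). The first call was lost with no filter on low counts (adjusted p = 0.0502), without AL replicate 3 (0.0585), EOD replicate 1 (0.0648) or EOD replicate 5 (0.0735), and without AL replicates 4 and 5 (0.115). The second was lost without IF16 replicate 2 (0.0505).

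Tk1 (chromosome 11, 117815526 to 117826092, mm10) stood at 24.6, 27.8, 21.3, 22.6 and 23.8 CPM in AL, at 43.6, 39.3, 36.8, 38.4 and 38.6 CPM in IF16, and at 31.1, 32.0, 54.6, 37.3 and 35.9 CPM in EOD. All libraries of both fasting groups were above all AL libraries. Tk1 rose by 0.71 on the log2 scale in IF16 against AL (SE 0.13, adjusted p = 0.00706) and by 0.67 in EOD against AL (SE 0.13, adjusted p = 0.00103), and both calls held under all 22 alternatives. Between EOD and IF16 it was -0.04, with an interval from -0.32 to 0.23. Tk1 overlaps Afmid, an enzyme of tryptophan breakdown, by 169 bases on the opposite strand. Gm20708, also on the opposite strand, overlaps it by 10567 bases, the whole gene, and had a mean of 0 CPM. Afmid was higher in EOD than in AL at 0.89 (SE 0.15, adjusted p = 0.000263), and its value in IF16 against AL was 0.47 (adjusted p = 0.0944). Reads of the shared bases cannot be told apart without strand.

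The sliding clamp Pcna, which holds the polymerase on DNA and also serves in repair, stood at 28.9, 21.8, 27.5, 28.9 and 30.9 CPM in AL, at 28.5, 32.7, 29.9, 27.9 and 29.2 CPM in IF16, and at 32.6, 34.9, 33.2, 32.1 and 24.95 CPM in EOD. EOD replicate 5 was the lowest of its group by a wide gap, and the other 4 EOD libraries were above AL. Pcna in EOD against AL was at 0.19 (SE 0.11, adjusted p = 0.177), and without EOD replicate 5 it was 0.29 (adjusted p = 0.0244). A copy in the table, Pcna-ps2, held 4 to 16 counts per library.

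Most genes of mitosis had low counts, and 1 of the 9 left after the filter on low counts passed in any comparison, Cdk1 in EOD against IF16. Over all tested genes 16.1% passed in that comparison, 35.2% in EOD against AL and 3.5% in IF16 against AL. Of the 9 mitotic genes, Aurka was the highest in counts, with 52 to 119 per library. Cdk1, the kinase of mitotic entry, stood at 0.773, 0.863, 1.31, 1.18 and 1.52 CPM in AL, at 1.74, 1.22, 1.68, 0.720 and 1.19 CPM in IF16, and at 0.936, 0.634, 0.924, 0.630 and 0.376 CPM in EOD. The groups overlapped. Against IF16 it was lower in EOD, at -0.89 on the log2 scale (SE 0.29, adjusted p = 0.0456), and its difference from AL was -0.68 (adjusted p = 0.0828). The first call remained in 7 of 22 alternatives. It was lost without AL replicate 1, 3 or 4, without any IF16 library but replicate 4, and without any EOD library but replicate 1 (adjusted p up to 0.114 over all alternatives). It was also lost without AL replicates 4 and 5 together (-0.87, adjusted p = 0.0524), with no filter on low counts (0.0616) and with EOD and IF16 fitted alone (0.0528).

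Ccnb2, a B-type cyclin and the highest of its class per length, stood at 0.572, 0.863, 0.522, 0.899 and 0.743 CPM in AL, at 0.961, 0.427, 1.78, 1.07 and 0.918 CPM in IF16, and at 0.390, 0.716, 0.889, 0.729 and 1.13 CPM in EOD. The groups overlapped, with 0.09 in EOD against AL (interval -0.62 to 0.81). A pseudogene, Ccnb2-ps, held 19 to 40 counts per library, against a minimum of 14 for Ccnb2 itself, so the level of Ccnb2 is uncertain. Ccna2, the A-type cyclin of S phase and G2, had means of 0.402, 0.568 and 0.314 CPM in AL, IF16 and EOD.

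Aurka, the Aurora kinase of the spindle poles, stood at 2.52, 2.45, 2.97, 2.11 and 2.36 CPM in AL, at 1.98, 2.72, 1.71, 2.08 and 1.81 CPM in IF16, and at 3.09, 2.42, 2.49, 2.55 and 3.26 CPM in EOD. IF16 replicate 2 was above the other IF16 libraries and within EOD. In EOD against IF16 Aurka was at 0.42 (SE 0.16, adjusted p = 0.0851), and it passed without IF16 replicate 2 (0.55, adjusted p = 0.0383). Birc5, the survivin subunit of the chromosomal passenger complex, was at -0.88 in EOD against IF16 (adjusted p = 0.0836), with means of 0.951, 1.43 and 0.785 CPM in AL, IF16 and EOD, and passed without EOD replicate 5 (-1.11, adjusted p = 0.0282). Bub1b, a checkpoint protein, had means of 0.446, 0.365 and 0.449 CPM.

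Kif11, the motor that separates the spindle poles, stood at 0.773, 0.863, 1.11, 0.933 and 0.776 CPM in AL, at 1.08, 0.519, 1.08, 0.774 and 0.783 CPM in IF16, and at 0.442, 0.634, 0.818, 1.03 and 0.690 CPM in EOD. The groups overlapped, and the difference in EOD against AL was -0.31 (interval -0.86 to 0.24). Top2a, the topoisomerase that untangles chromosomes, had means of 0.571, 0.761 and 0.441 CPM in AL, IF16 and EOD. Mki67 had means of 0.906, 0.856 and 0.630 CPM, and EOD replicate 5, at 1.25 CPM, was above the other EOD libraries, which were at 0.390 to 0.597 CPM. Without that library Mki67 was at -0.91 in EOD against AL (adjusted p = 0.0217), and with it at -0.53 (adjusted p = 0.227). In EOD against IF16 it was at -0.45 (adjusted p = 0.380), and -0.83 without the same library (adjusted p = 0.0493).

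Summed over the 35 genes, the level was 256 CPM in AL (SD 36.8, n = 5), 234 CPM in IF16 (SD 21.3) and 228 CPM in EOD (SD 23.3). Without Mcm10, Pcna and Tk1 the other 32 genes summed to 89.6 CPM in AL (SD 5.89), 82.3 CPM in IF16 (SD 9.25) and 77.9 CPM in EOD (SD 4.11). Of the role classes, the A- and B-type cyclins with Cdk1 summed to 2.46, 3.11 and 1.90 CPM in AL, IF16 and EOD, and the nucleotide genes to 43.7, 60.0 and 50.5 CPM, with Tk1 the largest share.

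Other genes of the cycle were read from a list of 165 genes in 10 roles, none of them in the set, of which 136 were tested. In EOD against AL, 50 of the 136 passed (36.8%, beside 35.2% of all tested genes), 19 higher and 31 lower. In EOD against IF16, 20 passed (14.7%, beside 16.1%), 6 higher and 14 lower, and in IF16 against AL 4 passed (2.94%, beside 3.5%). Of the 50 calls in EOD against AL, 29 held in every alternative in which the gene was tested, as did 10 of the 20 and 1 of the 4. The genes named below with values are among those that held, unless a loss is stated.

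Of 22 polymerase, clamp loader and ligase genes of the list, 7 fell (31.8%) and 1 rose (4.55%) in EOD against AL, beside 17.6% of all tested genes in either direction. Called both ways together, the class was at 36.4%, near the 35.2% of all tested genes. Pole, the catalytic subunit of the leading strand polymerase, was at -1.17 (SE 0.22, adjusted p = 0.000762), Pold2, a subunit of polymerase delta, at -0.61 (adjusted p = 0.00295), and Rpa2, of the single-strand binding complex, at -0.56 (adjusted p = 0.00317). Pole4, a small accessory subunit, was the 1 that rose, at 0.72 (SE 0.13, adjusted p = 0.000418). Of 12 origin genes, 3 fell (25.0%) and none rose, among them the helicase Recql4 at -1.08 (adjusted p = 0.00596). Of 10 genes of nucleotide and histone supply, 4 fell (40.0%) and none rose, while 5 of the 10 had positive fold changes. Among the 4 were Dck, the deoxycytidine salvage kinase, at -0.89 (adjusted p = 0.000671), and Chaf1b, of chromatin assembly, at -1.34 (adjusted p = 0.00143). Dck stood at 4.87, 3.45, 3.72, 5.15 and 4.69 CPM in AL and at 2.73, 2.48, 2.59, 2.25 and 1.76 CPM in EOD, with no overlap.

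Mitotic genes of the list went both ways, with more lower than higher calls in each of their classes in EOD against AL. Of 10 kinetochore and checkpoint genes, 4 fell (40.0%, beside 17.6% of all tested genes) and 1 rose in EOD against AL, and 5 fell in EOD against IF16 (beside 8.15% of all tested genes). Cenpm, a centromere protein, stood at 2.55, 2.87, 2.68, 1.90 and 1.89 CPM in AL, at 2.67, 1.89, 2.33, 1.81 and 3.35 CPM in IF16, and at 0.676, 0.606, 1.07, 0.895 and 0.596 CPM in EOD. EOD was below both groups in every library, by -1.64 against AL (SE 0.23, adjusted p = 5.86e-05) and -1.66 against IF16 (SE 0.23, adjusted p = 0.000165). Pttg1, the securin that restrains separase, fell by 0.54 on the log2 scale against AL (adjusted p = 0.000379) and by 0.56 against IF16 (adjusted p = 0.000875). Stmn1, which destabilises microtubules, rose by 0.94 against AL (adjusted p = 0.000426) and by 0.82 against IF16 (adjusted p = 0.00323). In the ubiquitin and mitotic exit class, 2 of 16 rose (12.5%) and 3 fell (18.8%), near the shares over all tested genes, with Ccnf, the F-box cyclin, at 1.20 (adjusted p = 0.000326) and Cks1b, a Cdk-binding subunit, at -0.96 (adjusted p = 0.000626).

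**Figure D4:**
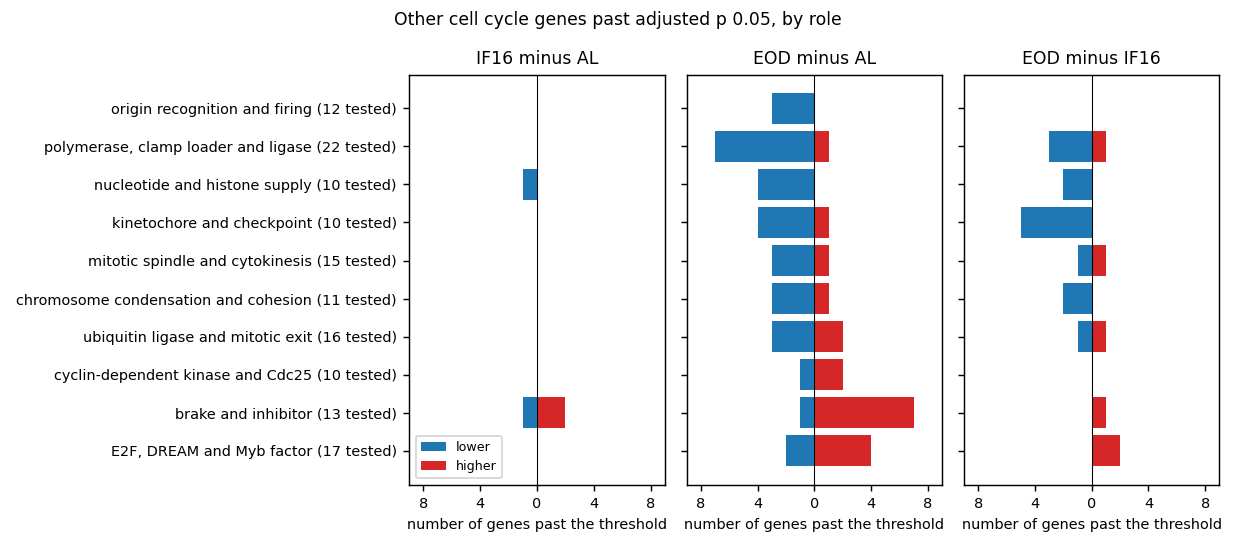
Number of other cell cycle genes past the adjusted threshold in each role, with lower genes to the left of 0 and higher genes to the right, in the 3 comparisons. In EOD minus AL the polymerase class has 7 lower and 1 higher, and the brake class has 1 lower and 7 higher.

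The brakes of the cycle were the class with most genes on the higher side. Of 13 tested, 7 rose (53.8%) and 1 fell (7.69%) in EOD against AL, beside 17.6% of all tested genes in either direction. The list was chosen with earlier results of these data known, so this share is not an independent test. Cdkn1a, the p21 inhibitor of cyclin-dependent kinases, stood at 2.09, 2.35, 3.39, 2.80 and 1.49 CPM in AL, at 1.89, 4.43, 4.73, 23.3 and 4.46 CPM in IF16, and at 40.7, 11.1, 15.6, 16.9 and 24.9 CPM in EOD. EOD did not overlap AL, and IF16 replicate 4 was within the EOD range. Cdkn1a rose in EOD against AL by 3.17 (SE 0.63, adjusted p = 0.00179). Ccng2, an atypical cyclin that restrains proliferation, stood at 6.73, 6.49, 5.74, 7.26 and 9.01 CPM in AL, at 10.8, 15.6, 18.3, 17.7 and 12.2 CPM in IF16, and at 29.2, 21.3, 26.2, 22.1 and 14.8 CPM in EOD. Both fasting groups were above AL in every library. It rose by 1.08 in IF16 (SE 0.18, adjusted p = 0.00343) and by 1.69 in EOD (SE 0.19, adjusted p = 5.52e-06).

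Btg1, an antiproliferative factor, rose by 0.86 in EOD (adjusted p = 0.00103). In IF16 it was at 0.63 (adjusted p = 0.0462), a call that remained in 11 of 22 alternatives (adjusted p up to 0.123). The inhibitor Cdkn2c was at 0.69 in EOD (adjusted p = 0.00792). Btg2, of the same family as Btg1, was the brake that fell, at -1.68 in IF16 (adjusted p = 0.0419) and -1.13 in EOD (adjusted p = 0.0470). Both calls of Btg2 remained in 6 of 22 alternatives, and AL replicate 4, at 38.7 CPM, was far above the other AL libraries, at 5.45 to 17.3 CPM. Dck was the fourth gene called in IF16, at -0.61 (adjusted p = 0.0488, remaining in 7 of 22 alternatives). Of 17 factors of the E2F, DREAM and Myb families, 4 rose and 2 fell in EOD against AL, 35.3% in all and so near the 35.2% of all tested genes. E2f8, an atypical E2F that represses, stood at 2.49, 3.07, 1.47, 1.69 and 1.52 CPM in AL, at 1.23, 2.17, 4.57, 3.20 and 1.97 CPM in IF16, and at 10.1, 9.28, 5.72, 15.2 and 7.65 CPM in EOD. EOD was above both groups in every library, by 2.22 against AL (SE 0.33, adjusted p = 0.000127) and 1.87 against IF16 (SE 0.32, adjusted p = 0.00132).

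**Figure D5:**
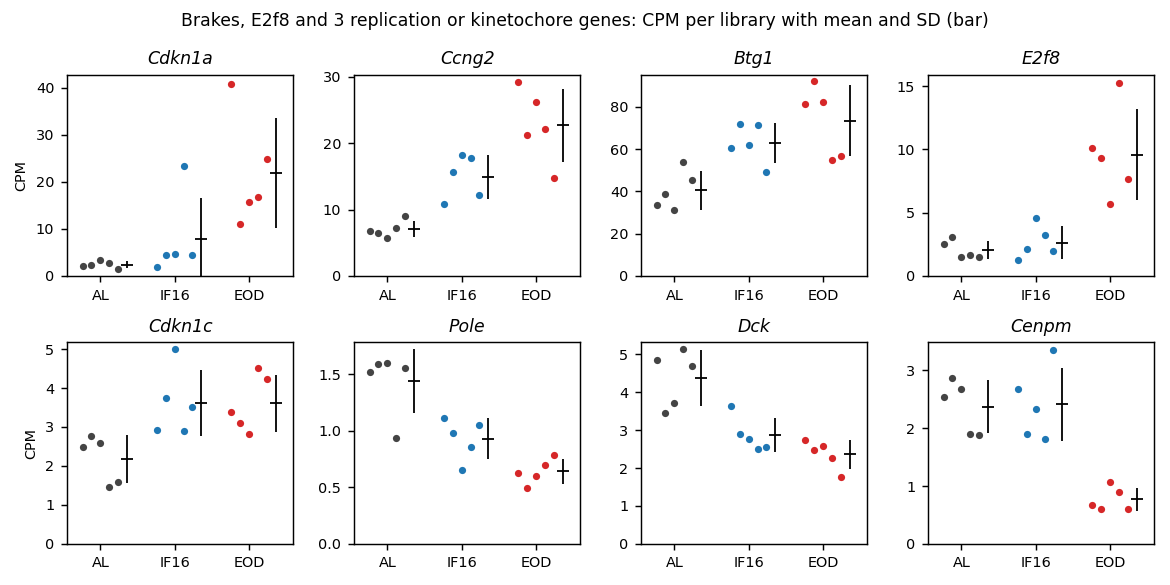
CPM per library of 8 genes outside the set, with points for replicates 1 to 5 from left to right in AL, IF16 and EOD and bars for the mean and SD. Cdkn1a, Ccng2 and E2f8 are highest in EOD, while Pole, Dck and Cenpm are lowest there.

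Markers of other liver cells were read beside these genes. Over all tested genes, 17.6% were called higher and 17.6% lower in EOD against AL. In IF16 against AL the shares were 1.4% higher and 2.1% lower. Of 9 markers of sinusoidal endothelium, 7 were higher in EOD and 5 in IF16 than in AL, and their sum ran from 104 to 177 CPM in AL, from 214 to 238 CPM in IF16 and from 202 to 247 CPM in EOD. Of 8 markers of B and plasma cells, 2 were lower in EOD than in AL, with sums of 7.98 to 42.5 CPM in AL, 10.8 to 17.5 CPM in IF16 and 9.12 to 14.5 CPM in EOD. Within AL this sum was 30.5, 42.5 and 31.8 CPM in replicates 1 to 3, and 7.98 and 8.61 CPM in replicates 4 and 5. T and NK cell markers summed to 4.90 to 7.64, 4.30 to 6.34 and 3.39 to 6.52 CPM, and 1 of 8 was lower in EOD than in AL. Kupffer cell markers summed to 146 to 349, 183 to 504 and 193 to 459 CPM, and erythroid markers to 220 to 613, 275 to 452 and 294 to 522 CPM, in AL, IF16 and EOD. Stellate markers summed to 123 to 218, 161 to 211 and 210 to 291 CPM, with 3 of 8 higher and 1 lower in EOD than in AL. Of 10 Kupffer cell markers 1 was higher in EOD than in AL, and of 7 tested erythroid markers none was called. Cholangiocyte markers summed to 38.5 to 62.6, 33.3 to 46.7 and 38.4 to 54.3 CPM in AL, IF16 and EOD, with 1 of 6 higher in EOD than in AL. Of 10 neutrophil markers 2 were tested, both lower in EOD than in AL and 1 lower in IF16 than in AL. The sum of the 10 was 31.2 and 28.8 CPM in AL replicates 4 and 5. In AL replicates 1 to 3 it was 1.37, 1.76 and 1.86 CPM. Calls of markers were not repeated without AL replicates 4 and 5. Of the 10 neutrophil markers, 1 was at 0 in all IF16 libraries and 1 in all EOD libraries, and no marker of the other lists was at 0 throughout a group. The part of these cells in the levels of the cell cycle genes was not tested.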

How the data were processed

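Messenger RNA of the liver was sequenced in 15 libraries, 5 in each of 3 feeding groups taken from the titles. The authors deposited raw counts per gene and FPKM values. The submitters' processing notes list STAR 2.5, HTSeq 0.6.1, DESeq2 and mm10. What each was used for, and the strand mode of counting, no source used here says. The deposited FPKM equal the count divided by gene length and library total in 100% of cells at a tolerance of 1e-08, and served only to order genes by level. Genes with low counts were removed by filterByExpr (minimum count 10). Counts were tested in R 4.3.3 with edgeR 4.0.16: TMM scaling, 1 quasi-likelihood fit of all libraries with a mean per group, and Benjamini-Hochberg adjustment over all tested genes, at 0.05. Standard errors follow from the log2 fold change and the F statistic of each test, and intervals are at 95%. The common biological coefficient of variation was 0.211. The chi-square statistic over degrees of freedom was 23.1 to 201 in the 30 within-group pairs, so no library was a copy of another.

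The members and lists were chosen with earlier results of these data known. A member that passed in any comparison, and the highest of each role by mean FPKM, is given in every library, and of the other list up to 4 genes per role and comparison with the smallest p are named; Ccnd1 was added after its values were seen. Of the 165 listed genes all were found, 1 of them by an older name. Alternatives were DESeq2 size factors, the DESeq2 1.42.0 Wald test, no low-count filter, a filter of 1 CPM in 5 libraries, only the 2 groups compared, a block for replicate number, omission of single libraries, and AL replicates 4 and 5 left out.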

Additional observations from a re-analysis of the deposited data

Results flagged for a closer look

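Over the 28 tested genes in 3 groups, 84 groups of 5 libraries were checked for a library far from the rest, by its gap to the nearest other library as a share of the range. Chance flags about 1 in 20 groups, and 5 were flagged. Ccnd1 was at 10.1 CPM in IF16 replicate 1, with the next library at 3.05 CPM. Tk1 was at 54.6 CPM in EOD replicate 3, with the next at 37.3 CPM. Ccnd3 was at 35.3 CPM in EOD replicate 1, with the next at 26.5 CPM. In EOD replicate 5, Pcna was the lowest of the group at 24.95 CPM, with the next at 32.1 CPM, and Mki67 was the highest at 1.25 CPM, with the next at 0.597 CPM.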

How the results depend on the processing

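The counts of called members kept within 1.5 times of 2, 11 and 5 under every alternative: 2 to 3 in IF16 against AL, 8 to 13 in EOD against AL and 4 to 6 in EOD against IF16. With the replicate number as a block they were 2, 12 and 5. Under the block Ccnd1 passed in EOD against AL (adjusted p = 0.0415), and in EOD against IF16 Birc5 passed (0.0433) and Cdk1 was lost (0.0561), so 4 of the 5 were shared. Over all genes the block gave 492, 4809 and 2226 calls, against 484, 4867 and 2229 without it, and the other list had 1, 45 and 20, against 4, 50 and 20. The numbers were not taken as pairs: deviations of same-numbered libraries correlated over 0.1 in 1 of 5 pairs of IF16 and AL, 1 of 5 of EOD and AL and 3 of 5 of EOD and IF16, and 1, 2 and 2 of 5 libraries correlated best with their own number. Over all genes in IF16 against AL, the DESeq2 Wald test called 937, and leaving out 1 library gave 241 (without IF16 replicate 3) to 619. In EOD against AL it gave 3913 to 5726 (without EOD replicate 5), and in EOD against IF16 1418 (without IF16 replicate 5) to 3383 (without EOD replicate 5), with 1460 without EOD replicate 1. The other list in IF16 against AL had 2 calls with no low-count filter and 2 with a pair of groups alone, and 1 to 3 with 1 library left out. In EOD against IF16 it had 10 (without EOD replicate 1) to 23, with 11 without IF16 replicate 3 or 5 and 12 without EOD replicate 2. The cause was not tested. No call of a member changed sign. Members that had not passed and changed sign are given here. Ccnd1 in EOD against IF16 went from -0.35 to 0.40 without IF16 replicate 1. Ccnd2 in IF16 against AL was at 0.0023 with the block, and Mcm7 at 0.081 without AL replicates 4 and 5. Bub1b in EOD against AL was at 0.0024 with DESeq2 size factors, 0.0035 by the Wald test, 0.0019 with no filter and 0.095 without AL replicates 4 and 5. With 1 library left out, log2 fold changes of uncalled members that changed sign ranged as follows. In IF16 against AL they were Ccnd2 (-0.15 to 0.15), Mcm4 (-0.19 to 0.022), Mcm7 (-0.15 to 0.0087), Rrm2 (-0.15 to 0.053), Kif11 (-0.18 to 0.052) and Mki67 (-0.20 to 0.088). In EOD against AL they were Ccnd2 (-0.17 to 0.13), Ccna2 (-0.56 to 0.0034), Ccnb2 (-0.061 to 0.27), Mcm4 (-0.15 to 0.048) and Bub1b (-0.19 to 0.17). In EOD against IF16 they were Ccnd1 (-0.51 to 0.40), Ccnd2 (-0.15 to 0.080), Mcm2 (-0.24 to 0.032), Mcm4 (-0.073 to 0.15), Mcm10 (-0.14 to 0.10) and Tk1 (-0.20 to 0.022). The depth limits the 7 genes below the filter and the mitotic genes below 1 CPM. Absence of a call there does not show equal levels.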
